A study of Mus musculus with 14 samples.

Results

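Genes of neurons and secretory granules were followed in mouse hepatic stellate cells (HSCs), the vitamin A storing cells of the liver that turn into myofibroblasts when they are put into culture. The set holds 45 genes, chosen as genes of synaptic vesicles, secretory granules, the neuronal cytoskeleton, calcium channels and synaptic adhesion, with the repressor Rest added. For each gene the probe set was used that is paired with that gene symbol alone, and 44 of the 45 had one. Pcsk2, a prohormone convertase, was not analysed here. The genes were listed with the effect of 64 h of valproic acid (VPA) in view, so their differences in that comparison are a description and not a test.

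HSCs isolated from BalbC mice (Balb/cByJ in the study's methods) were cultured in DMEM with 10% FBS, and at 2 h after seeding the cells that had not attached were washed away. Untreated cultures form the groups Ctrl4h (3 cultures, taken 4 h after that wash), Ctrl16h (2 cultures, at 16 h) and Ctrl64h (3 cultures, at 64 h). Cultures given 2.5 mM VPA from the wash on form the groups VPA4h (3 cultures) and VPA64h (3 cultures). The study's legends describe the repeats of a group as separate HSC isolations. RNA from each culture was measured on 1 Affymetrix mouse whole-transcript array, 14 in all. Age and sex of the mice are not given in the labels used here.

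The values are log2 expression after RMA, a procedure that gives all arrays the same overall distribution of intensities, so each difference is relative to the other genes on the array. A difference of 1 on this scale is 2-fold. The median over the 23410 probe sets paired with a gene symbol lay between 6.34 and 6.41 on every array. Arrays of 1 group correlated at r = 0.9932 to 0.9955 and arrays of different groups at r = 0.9389 to 0.9859. Of 13 stellate cell markers 9 lay above the median on every array, among them Des, Pdgfrb, Reln, Dcn and Vim, while Gfap had group means between 5.13 and 5.68 in the VPA and control groups of 4 h and 64 h. A gene is called here at a limma adjusted p under 0.05 and a difference of at least 2-fold, and these cultures were measured in bulk, so that more cells expressing a gene and more RNA per cell cannot be told apart.

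VPA inhibits histone deacetylases, enzymes that remove acetyl groups from histones and are found at silent genes. Neuronal genes are a classic case of such silencing. In cells outside the nervous system the zinc finger protein REST binds a DNA element named RE1 near many of them, and brings in Sin3a and the CoREST proteins (Rcor genes) together with histone deacetylases. Neurons and endocrine cells share much of the machinery that these genes encode, since both store signals in vesicles or granules and release them on a calcium signal. HSCs are known to carry some neural proteins themselves, among them Gfap, the nerve growth factor receptor Ngfr and synaptophysin (Syp).

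After 64 h, 9 of the 44 measured genes were called higher with VPA and 0 lower, while 1.00% of all probe sets were called higher and 1.14% lower. At an unadjusted p under 0.05 17 of the 44 were higher and 4 lower. The share of all probe sets at that cut-off was not computed, so such counts, here and below, have nothing to be set against. Without the fold limit 12 were higher and 2 lower, beside 12.8% and 11.2% of all probe sets. The 9 were Uchl1, Aplp1, Ptprn, Cacng7, Syt11, Map1b, Syn1, Map2 and Mapt, higher by 1.18 to 2.08 on the log2 scale, and for each of them every VPA64h array lay above every Ctrl64h array. Such a lack of overlap was seen for 14 of the 44 genes in that direction and for 3 in the other, beside 19.4% and 17.6% of all probe sets. The other 35 genes differed by -0.40 to 0.58, with a median of 0.07. The smallest difference among the 9 was that of Mapt (1.18) and the largest outside them that of Syp (0.58), with no gene between them. Since the genes were listed with this contrast in view, the shares are given side by side and nothing is read from them.

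**Figure D1:**
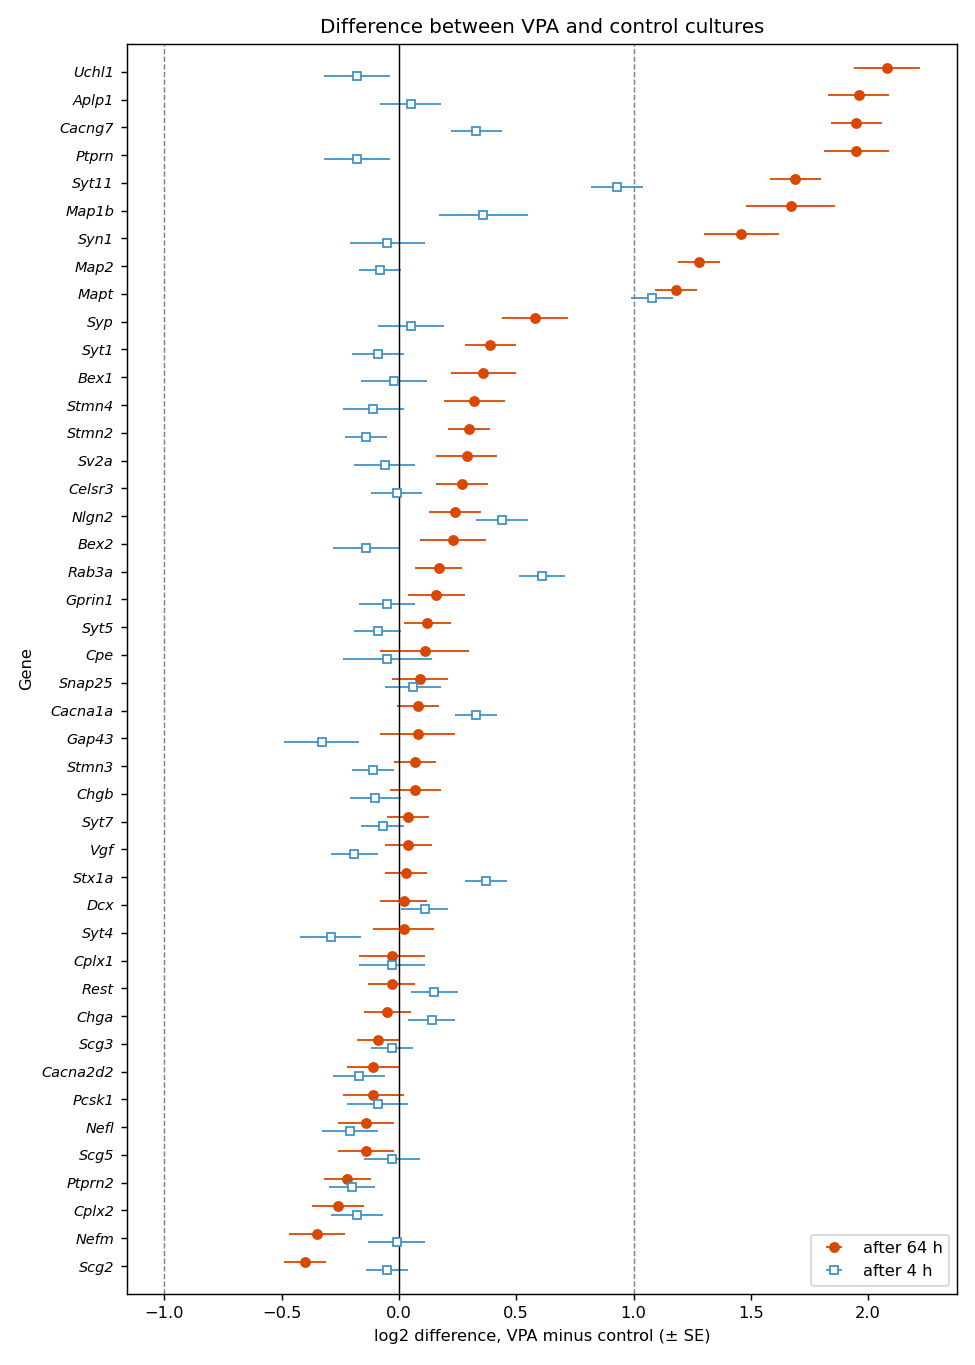
Difference in log2 expression between VPA and control cultures (x axis, VPA minus control, bars are SE of the limma fit) after 64 h (filled circles) and 4 h (open squares) for each of the 44 measured genes (y axis). Dashed lines mark 2-fold; 9 genes lie right of it after 64 h, and Mapt does so after 4 h too.

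RE1 letters were looked for first, in the DNA just before the genes' start sites. RefSeq windows (GRCm38.p6) of 250 bases before to 50 bases after a start were at hand for 30 of the measured genes, 8 of them among the 9 higher with VPA (not Mapt). The consensus RE1 of 21 bases, which specifies 19 letters and begins with TTCAGCACC, was searched on both strands with at least 15 letters matched. They were found in 2 of the 30, Syn1 with 17 letters and Celsr3 with 16, and in 0.274% of the 27025 genes with a window. The left part of the element alone, TTCAGCACC (both strands), was present in 4 of the 30 (Syn1, Celsr3, Scg2 and Ptprn2) and in 0.433% of all windows, and these matches overlap the longer ones in Syn1 and Celsr3. Of the 2 genes with the longer match Syn1 was higher by 1.46 after 64 h of VPA, while Celsr3, which encodes a cadherin of axon guidance, differed by 0.27. Their upstream sequences are shown because they hold these letters (in capitals), on the minus strand of chrX:20920919-20921168 for Syn1, where the match begins 232 bases before the start, and on the plus strand of chr9:108825795-108826044 for Celsr3, where it begins 127 bases before.
Syn1: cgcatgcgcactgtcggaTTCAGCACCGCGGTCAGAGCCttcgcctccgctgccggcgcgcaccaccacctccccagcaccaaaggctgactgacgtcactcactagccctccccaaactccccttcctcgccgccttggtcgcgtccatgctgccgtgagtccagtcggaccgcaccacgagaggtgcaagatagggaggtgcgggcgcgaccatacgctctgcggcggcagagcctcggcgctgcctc
Celsr3: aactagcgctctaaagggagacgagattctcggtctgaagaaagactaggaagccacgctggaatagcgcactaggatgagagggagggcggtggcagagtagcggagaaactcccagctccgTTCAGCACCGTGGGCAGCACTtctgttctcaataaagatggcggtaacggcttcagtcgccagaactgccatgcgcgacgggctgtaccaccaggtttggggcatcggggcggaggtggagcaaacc

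The other 2 sequences printed are those of Map2, which held the most GC boxes among the 8, and Uchl1, the gene with the largest VPA difference, which held none of the motifs searched. A GC box (GGGCGG, both strands), a common promoter element bound by Sp1, was present in 75.0% of the 8 windows of genes higher with VPA, in 77.3% of the other 22 and in 38.2% of all genes. The Map2 window, on the plus strand of chr1:66175079-66175328, held 5 of them (in capitals). The Uchl1 window lies on the plus strand of chr5:66675871-66676120.
Map2: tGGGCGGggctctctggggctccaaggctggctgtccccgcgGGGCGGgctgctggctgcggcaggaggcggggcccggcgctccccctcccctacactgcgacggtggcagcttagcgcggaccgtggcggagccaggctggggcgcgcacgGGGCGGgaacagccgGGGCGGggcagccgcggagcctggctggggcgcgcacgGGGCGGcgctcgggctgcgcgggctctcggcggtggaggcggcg
Uchl1: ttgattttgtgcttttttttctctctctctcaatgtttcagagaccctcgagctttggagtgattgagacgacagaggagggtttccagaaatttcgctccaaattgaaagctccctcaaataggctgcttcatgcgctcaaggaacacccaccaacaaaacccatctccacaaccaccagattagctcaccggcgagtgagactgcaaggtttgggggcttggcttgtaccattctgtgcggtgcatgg

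The cyclic AMP element TGACGTCA (both strands) was found in 4 of the 30 windows, those of Syn1, Scg2, Chgb and Pcsk1, and in 2.03% of all genes. The GC content had a median of 63.8% in the windows of the genes higher with VPA, 61.0% in the others and 53.3% over all genes. A CCAAT box was present in 12.5%, 22.7% and 41.1% of these windows and a TATA box (TATAAA) in 12.5%, 13.6% and 15.7%. No binding or histone mark was measured, so a match is only a description of the letters, and windows further out were not searched.

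Rest itself lay well above the array median in every culture. It was 8.59, 8.35 and 8.36 in Ctrl4h, 8.40 and 8.36 in Ctrl16h, 8.14, 8.0 and 8.15 in Ctrl64h, 8.50, 8.60 and 8.65 in VPA4h, and 8.25, 7.94 and 8.01 in VPA64h. The VPA and control arrays overlapped at both times. With VPA it differed by 0.15 after 4 h (SE 0.10, adjusted p = 0.368) and by -0.03 after 64 h (SE 0.10). In control culture it was lower after 64 h than after 4 h by 0.34 (SE 0.10, adjusted p = 0.00796), less than 2-fold, and the Ctrl64h arrays all lay below the Ctrl4h arrays.

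Partners of REST were taken from a list of 17 corepressor genes, of which 15 were measured. After 4 h of VPA Sin3a, the scaffold of a histone deacetylase complex, rose by 1.02 (SE 0.08, adjusted p = 2.19e-07). It was the 1 gene of the list called, beside 0.867% of all probe sets called higher and 0.555% lower. Its rise was 0.96 and under 2-fold when VPA4h replicate 3 was left out. Without the fold limit 10 of the 15 passed the adjusted p as higher and 3 as lower, beside 11.5% and 9.96% of all probe sets, and the list's median was 0.31 against -0.03 over all probe sets. Without VPA, from 4 h to 16 h of control culture, 9 of the 15 were higher and 2 lower, beside 12.8% and 7.32% of all probe sets, with a median of 0.37. Both comparisons share the Ctrl4h arrays. With 4 h of VPA Hdac1 was higher by 0.93 (adjusted p = 1e-06), Phf21a by 0.76 (adjusted p = 2.8e-05) and Rcor1 by 0.70 (adjusted p = 3.26e-05). The phosphatase gene Ctdsp1 was lower by 0.66 (adjusted p = 3.96e-05) in the same comparison with Ctrl4h. After 64 h 0 of the 15 were called by limma in either direction, beside 1.00% of all probe sets called higher and 1.14% lower. Without the fold limit 5 were then higher and 3 lower, beside 12.8% and 11.2% of all probe sets. At an unadjusted p under 0.05 6 were higher and 4 lower. Sin3a was then higher by 0.76 (adjusted p = 3.54e-06).

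Uchl1, Aplp1 and Ptprn stood apart in the same group, VPA64h. Uchl1 encodes an abundant neuronal ubiquitin hydrolase. It was 6.09, 6.11 and 6.30 in Ctrl64h and 8.02, 8.09 and 8.63 in VPA64h, higher by 2.08 (SE 0.14), the 1 gene of the set past 4-fold. With single arrays left out or other settings the difference was 1.89 to 2.21, so it was not always past 4-fold. In the other groups Uchl1 was 6.52, 6.40 and 6.45 (Ctrl4h), 6.71 and 6.70 (Ctrl16h) and 6.08, 6.48 and 6.26 (VPA4h). After 4 h the VPA and control arrays overlapped. The arrays of 64 h with VPA lay more than 1 log2 unit above all others.

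Aplp1, a relative of the amyloid precursor protein that is found at synapses, was 6.48, 6.44 and 6.26 in Ctrl64h and 8.30, 8.28 and 8.47 in VPA64h, higher by 1.96 (SE 0.13). It was 6.21, 6.80 and 6.63 in Ctrl4h, 6.37 and 6.22 in Ctrl16h, and 6.80, 6.56 and 6.45 in VPA4h. Outside VPA64h all arrays lay between 6.21 and 6.80. Of its relatives App differed by 0.01 after 64 h of VPA (adjusted p = 0.96) and Aplp2 was higher by 0.44 (adjusted p = 0.00139), under 2-fold.

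Ptprn (IA-2), a membrane protein of dense core granules and an autoantigen in type 1 diabetes, was 6.25, 5.83 and 6.14 in Ctrl64h and 7.72, 8.05 and 8.29 in VPA64h, higher by 1.95 (SE 0.14). It was 6.46, 6.37 and 6.33 in Ctrl4h, 6.54 and 6.58 in Ctrl16h, and 6.41, 6.15 and 6.06 in VPA4h. Only the 64 h VPA arrays stood apart. Ptprn2, its closest relative and also a granule protein, differed by -0.22 after 64 h of VPA and by -0.20 after 4 h, and was not called at either time.

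**Figure D2:**
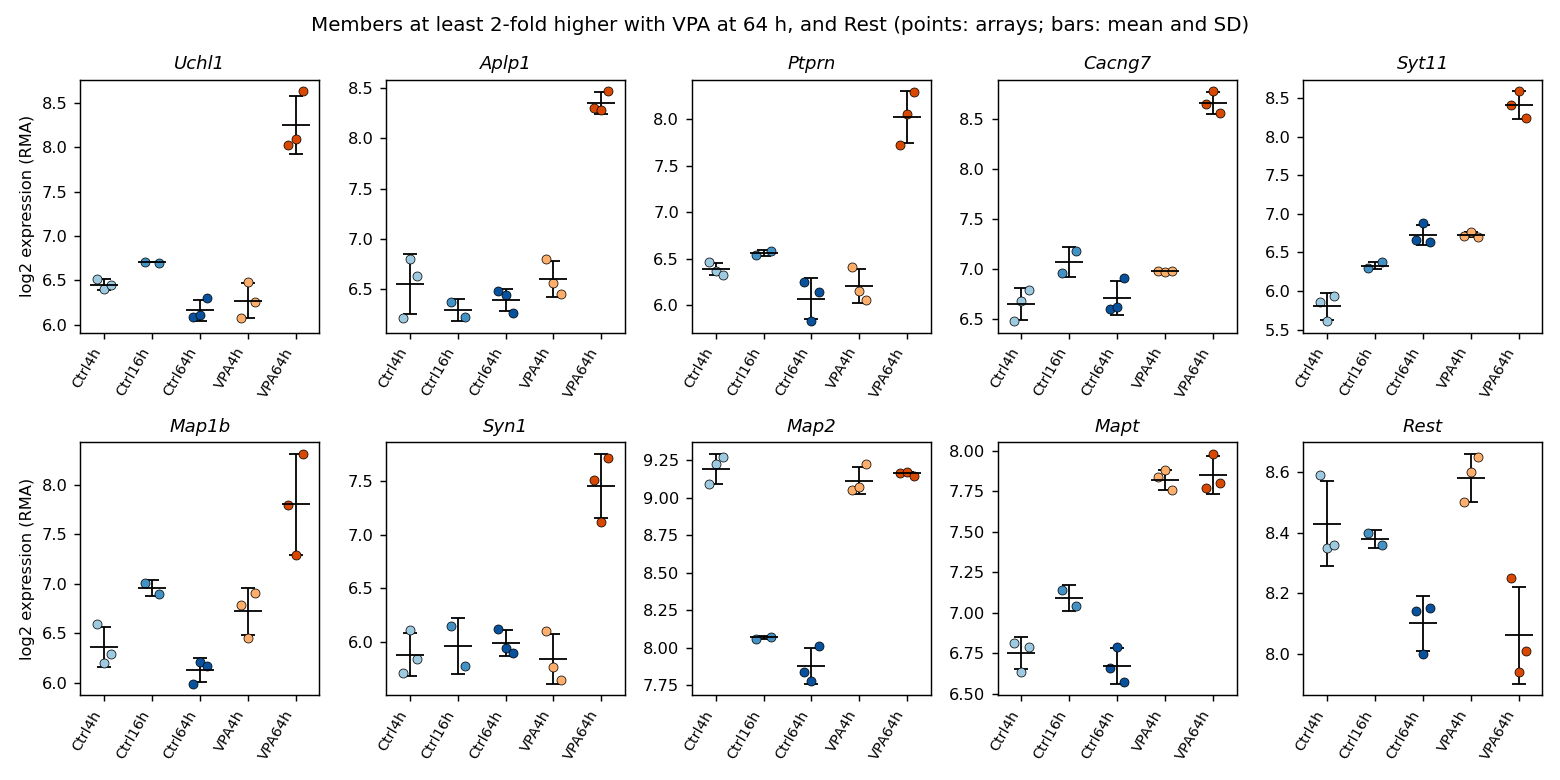
Log2 expression after RMA (y axis) on each array (points) of the 5 groups (x axis) for the 9 genes called higher after 64 h of VPA and for Rest; horizontal bars are group means and vertical bars the SD. The y axes differ between genes and do not start at 0. Map2 was 7.84, 7.78 and 8.01 in Ctrl64h and above 9 in Ctrl4h and in both VPA groups, and Rest overlapped between VPA and control at both times.

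Synaptotagmins are membrane trafficking proteins, of which Syt1 is the calcium sensor of fast transmitter release, while others such as Syt11 do not act as calcium sensors. Of the 5 on the list Syt11 was the 1 called after 64 h of VPA. It was 5.86, 5.61 and 5.94 in Ctrl4h, 6.30 and 6.37 in Ctrl16h, and 6.66, 6.88 and 6.64 in Ctrl64h. With VPA it was 6.71, 6.77 and 6.70 after 4 h and 8.41, 8.59 and 8.24 after 64 h. It was thus higher with VPA at both times, by 0.93 after 4 h (SE 0.11, adjusted p = 1e-05), just short of 2-fold, and by 1.69 after 64 h (SE 0.11). In control culture it was higher after 64 h than after 4 h by 0.93 (SE 0.11, adjusted p = 2.12e-06), also under 2-fold. The other 4 (Syt1, Syt4, Syt5 and Syt7) differed by 0.02 to 0.39 after 64 h of VPA, and Syt1, Syt4 and Syt5 lay below the median on all 14 arrays.

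Among 8 genes of vesicle proteins and the fusion machinery, Syn1 was the 1 called after 64 h of VPA. Synapsin I coats synaptic vesicles and ties them to the cytoskeleton. Syn1 was 6.12, 5.94 and 5.90 in Ctrl64h and 7.51, 7.12 and 7.71 in VPA64h, higher by 1.46 (SE 0.16). After 4 h it was 6.10, 5.77 and 5.65 with VPA and 5.71, 6.11 and 5.84 without, with a difference of -0.05 (SE 0.16, adjusted p = 0.901), and it was 6.15 and 5.78 in Ctrl16h. Its relatives Syn2 and Syn3 differed by -0.06 and 0.06 after 64 h (adjusted p = 0.779 and 0.696).

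Syp, an integral protein of vesicle membranes, was higher by 0.58 (SE 0.14) after 64 h of VPA. The SNARE protein Snap25 and the complexins Cplx1 and Cplx2, which clamp SNARE complexes, differed by 0.09, -0.03 and -0.26 at that time. Rab3a, a GTPase of vesicle docking, and Stx1a, a SNARE of the plasma membrane, were higher after 4 h of VPA, by 0.61 (SE 0.10, adjusted p = 0.000251) and 0.37 (adjusted p = 0.00561), and differed by 0.17 and 0.03 after 64 h.

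Of 10 measured genes of granule cargo and prohormone processing Ptprn alone was called after 64 h of VPA, and the other 9 differed by -0.40 to 0.11. The granins Chga, Chgb, Scg2, Scg3 and Scg5, the neuropeptide precursor Vgf and the convertase Pcsk1 lay below the median on every array, with group means between 3.79 and 6.28. Scg2 (secretogranin II) was lower by 0.40 (SE 0.09), 1 of 2 genes that were lower with VPA when no fold limit was set. After 4 h of VPA 0 of the 10 were past an adjusted p under 0.05, beside 11.5% of all probe sets higher and 9.96% lower, so that a count of 0 among 10 genes says little, and their differences were -0.20 to 0.14. Cpe, carboxypeptidase E, which trims prohormones, was the granule gene called in control culture.

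Cpe was 5.44, 5.77 and 5.96 in Ctrl4h, 5.74 and 5.98 in Ctrl16h, and 6.80, 6.77 and 7.19 in Ctrl64h. It rose by 1.06 between 16 h and 64 h (SE 0.21, adjusted p = 0.000723) and by 1.19 over the whole control culture (SE 0.19, adjusted p = 5.26e-05), where 4.52% and 6.68% of all probe sets were called higher. Every Ctrl64h array lay above every earlier control array. With VPA it was 5.41, 5.71 and 5.89 after 4 h and 7.20, 6.57 and 7.31 after 64 h, so that the VPA and control arrays overlapped at both times. The call from 16 h to 64 h rests on single arrays: without replicate 1 of Ctrl16h the difference was 0.94, without replicate 3 of Ctrl64h 0.93, and with the replicate number as a block 0.93, in each case under 2-fold. With each array centred on housekeeping genes the rise over the whole culture was 0.92.

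Of 11 cytoskeleton and growth cone genes the 3 called after 64 h of VPA were Map1b, Map2 and Mapt, which encode microtubule-associated proteins. The other 8 differed by -0.35 to 0.32, among them Dcx (doublecortin) by 0.02. Map1b, which is prominent in growing axons, was 5.99, 6.21 and 6.17 in Ctrl64h and 7.79, 7.29 and 8.31 in VPA64h, higher by 1.67 (SE 0.19). It was 6.59, 6.2 and 6.29 in Ctrl4h, 7.01 and 6.90 in Ctrl16h, and 6.79, 6.45 and 6.91 in VPA4h. Its VPA64h arrays spread over about 1 log2 unit, and all of them lay above the Ctrl16h arrays.

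Map2, the dendritic microtubule protein, was the gene of the set called lower in control culture. It was 9.09, 9.22 and 9.27 in Ctrl4h, 8.06 and 8.07 in Ctrl16h, and 7.84, 7.78 and 8.01 in Ctrl64h. It fell by 1.12 in the first interval (SE 0.10, adjusted p = 8.98e-07) and by 1.32 over the whole time (SE 0.09, adjusted p = 3.43e-09), where 1.21% and 3.71% of all probe sets were called lower. With VPA it was 9.05, 9.07 and 9.22 after 4 h, a difference of -0.08 from control (adjusted p = 0.642), and 9.16, 9.17 and 9.14 after 64 h, higher than Ctrl64h by 1.28 (SE 0.09). The VPA64h arrays fell within the range of the Ctrl4h arrays. The fall in culture and the VPA difference share the Ctrl64h arrays and are not independent.

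Mapt (tau), the axonal microtubule protein, was the 1 gene of the set called after 4 h of VPA. It was 6.81, 6.63 and 6.79 in Ctrl4h and 7.84, 7.88 and 7.76 in VPA4h, a rise of 1.08 (SE 0.09, adjusted p = 5.28e-07). It was 6.66, 6.79 and 6.57 in Ctrl64h and 7.77, 7.98 and 7.80 in VPA64h, higher by 1.18 (SE 0.09), with 7.14 and 7.04 in Ctrl16h. The VPA arrays of both times lay at one level, above all control arrays. Stmn2, Stmn3 and Stmn4, relatives of the microtubule-destabilizing protein stathmin, the growth cone proteins Gap43 and Gprin1, the neurofilaments Nefl and Nefm, and Dcx (doublecortin) were not called in any contrast.

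Of 5 genes of calcium channels and synaptic adhesion Cacng7, a regulatory subunit of calcium channels and AMPA receptors, was the 1 called after 64 h of VPA. It was 6.60, 6.62 and 6.91 in Ctrl64h and 8.65, 8.78 and 8.56 in VPA64h, higher by 1.95 (SE 0.11). It was 6.48, 6.68 and 6.79 in Ctrl4h, 6.96 and 7.18 in Ctrl16h, and 6.98, 6.97 and 6.98 in VPA4h. The VPA4h arrays lay just above those of Ctrl4h, by 0.33 (SE 0.11, adjusted p = 0.0355), and that difference passed the limit no longer when any one of 5 of the 6 arrays was left out or when all probe sets were tested. Cacna1a, the pore of P/Q-type channels, and Nlgn2, the adhesion protein of inhibitory synapses, were higher after 4 h of VPA, by 0.33 (adjusted p = 0.0137) and 0.44 (adjusted p = 0.00727), and differed by 0.08 and 0.24 after 64 h. The difference of Cacna1a after 4 h passed the limit no longer without Ctrl4h replicate 2 (0.30) or VPA4h replicate 3 (0.26).

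Over the set, 1 of 44 genes was called higher after 4 h of VPA and 0 lower, beside 0.867% and 0.555% of all probe sets. Without the fold limit 7 were higher (Mapt, Syt11, Rab3a, Nlgn2, Stx1a, Cacng7 and Cacna1a) and 0 lower, beside 11.5% and 9.96% of all probe sets. At an unadjusted p under 0.05 7 were higher and 1 lower. These are other arrays than those of the 64 h comparison. The median difference of the 44 was -0.05, against -0.03 over all probe sets. Of the 9 genes called after 64 h 8 were not called after 4 h, and of these Syt11 and Cacng7 were past the adjusted p without the fold limit. Whether the VPA effect differed between the times was not tested.

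In control culture the genes called were Cpe and Map2. From 4 h to 16 h Map2 was called lower and 0 higher, beside 1.21% of all probe sets called lower and 0.705% higher. At an unadjusted p under 0.05 4 were higher and 3 lower. Without the fold limit 3 were higher (Syt11, Mapt and Cacng7) and 1 lower, beside 12.8% and 7.32% of all probe sets. From 16 h to 64 h Cpe was called higher and 0 lower, beside 4.52% of all probe sets called higher and 2.08% lower. In that interval 3 were higher and 12 lower without the fold limit, beside 19.2% and 23.9% of all probe sets. Over the whole time 1 of the 44 was called higher (Cpe) and 1 lower (Map2), beside 6.68% and 3.71% of all probe sets. Without the fold limit 4 were higher (Cpe, Syt11, Cacna1a and Rab3a) and 13 lower, beside 25.0% and 31.6%. Among the 13 were Gap43 at -0.65, Celsr3 at -0.58, Stmn4 at -0.56, Cacna2d2 at -0.54 and Vgf at -0.42. These contrasts share control arrays with each other and with the VPA contrasts. Centring each array on housekeeping genes moved all differences by -0.27 from 4 h to either later time and by 0.12 for VPA after 64 h.

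**Figure D3:**
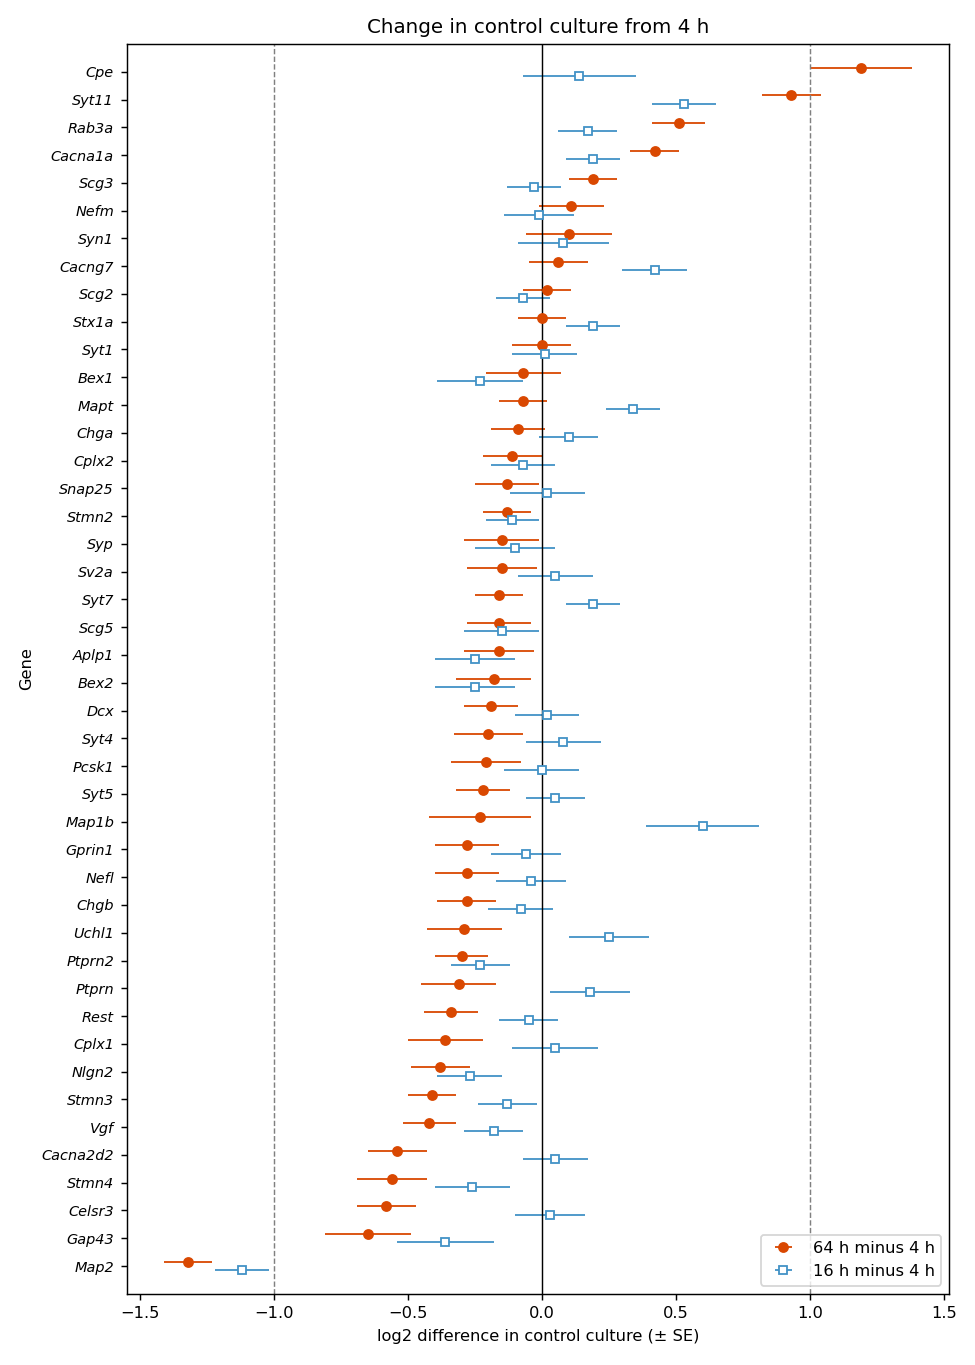
Difference in log2 expression from the 4 h control (x axis, later time minus 4 h, bars are SE of the limma fit) after 64 h (filled circles) and 16 h (open squares) of control culture for each of the 44 measured genes (y axis). Dashed lines mark 2-fold; Cpe lies above it after 64 h and Map2 below it at both times, and both series of points share the Ctrl4h arrays.

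Of the 44 genes 23 (52.3%) lay below the array median on all 14 arrays and were called in none of the 5 contrasts, and the same held for 40.5% of all probe sets. They were the synaptotagmins Syt1, Syt4 and Syt5, the release genes Snap25, Cplx2, Sv2a and Rab3a, the granule genes Chga, Chgb, Scg2, Scg3, Scg5, Vgf and Pcsk1, the cytoskeleton genes Stmn2, Nefl, Nefm, Dcx and Gprin1, the channel subunit Cacna2d2, Celsr3, and the small adaptor genes Bex1 and Bex2. Their group means lay between 3.0 and 6.28, and the means of the highest and lowest group of a gene were 0.20 to 0.71 apart, with a median of 0.32. The table holds no detection calls, so a low value cannot be told from no transcript. The remaining 11 uncalled genes, Ptprn2, Syt7, Syp, Stx1a, Cplx1, Stmn3, Stmn4, Gap43, Cacna1a, Nlgn2 and Rest, lay above the median on at least 1 array.

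**Figure D4:**
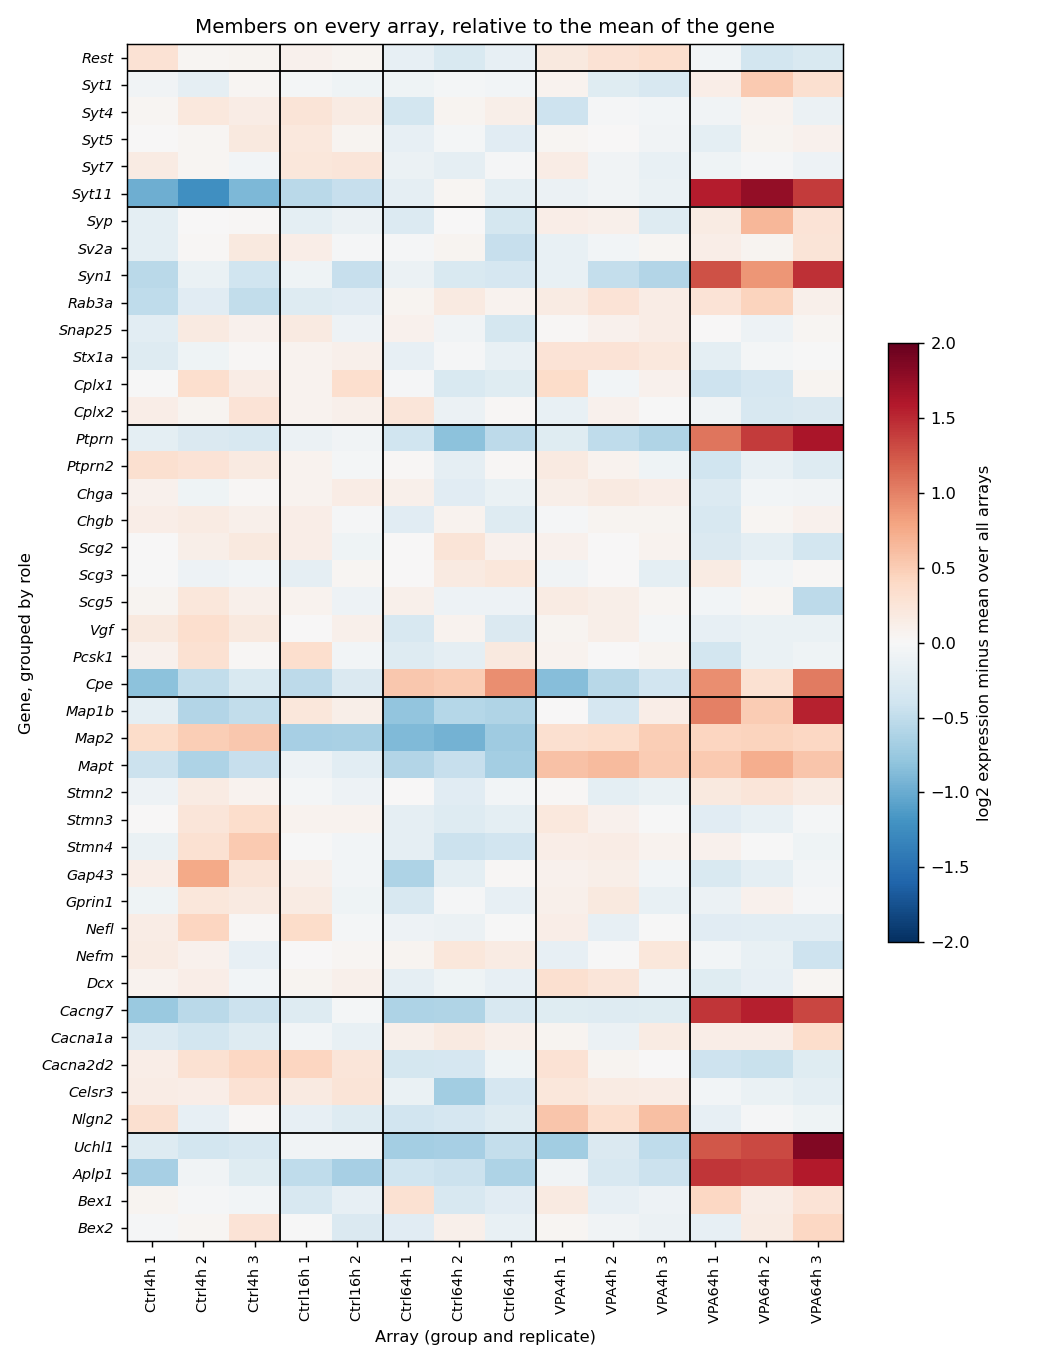
Log2 expression of the 44 measured genes (rows, grouped by role from Rest at the top to the other neuronal genes at the bottom) on the 14 arrays (columns, grouped), as the difference from the mean of the gene over all arrays (colour, red above and blue below). Strong red is seen in the VPA64h columns for Uchl1, Aplp1, Ptprn, Cacng7, Syt11, Map1b and Syn1. Mapt is red in both VPA groups, and Map2 is red in Ctrl4h as well as in both VPA groups. Cpe is red in Ctrl64h and VPA64h, and most other rows are pale.

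Relatives of these genes were counted from 4 lists of 165 other genes of exocytosis, granules, the neuronal cytoskeleton, and channels and adhesion, of which 157 were measured. After 64 h of VPA 6 of them rose (3.82%, beside 1.00% of all probe sets) and 2 fell, with a median of 0.02. Of the exocytosis genes, the vesicle protein Syngr3 rose by 1.53 (SE 0.09, adjusted p = 1.16e-08) and Amph, an endocytosis protein of nerve endings, by 1.05 (adjusted p = 4.34e-06; 0.97 and under 2-fold without VPA64h replicate 1), 2 of 52. Of 37 cytoskeleton genes the axonal kinesin Kif1a rose by 1.39 (adjusted p = 1.83e-07), Crmp1 by 1.35 (adjusted p = 1.27e-05), Kif5c by 1.13 (adjusted p = 1.49e-06) and Kif21b by 1.11 (adjusted p = 2.46e-06), and the doublecortin-like kinase Dclk1 fell by 1.41 (adjusted p = 2.04e-06). Of 32 granule genes the convertase Pcsk6 fell by 1.14 (adjusted p = 9.45e-07) and 0 rose, with 3 higher and 4 lower at an unadjusted p under 0.05. Of 36 channel and adhesion genes 0 were called in either direction by limma, and at an unadjusted p under 0.05 5 were higher and 3 lower. With 1.00% of all probe sets called higher and 1.14% lower, a count of 0 among 32 or 36 genes says little. The neuronal tubulin Tubb3 differed by -0.07 (adjusted p = 0.752).

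After 4 h of VPA 3 of the 157 rose, all of them cytoskeleton genes, and 0 fell, beside 0.555% of all probe sets called lower. At an unadjusted p under 0.05 21 were higher and 10 lower. Kif21b rose by 1.34 (adjusted p = 4.02e-07), Dpysl2 by 1.10 (adjusted p = 1.84e-06) and Map1a, a relative of Map1b, by 1.03 (adjusted p = 1.37e-05). The rise of Map1a was 0.90 without Ctrl4h replicate 2 and 0.95 without VPA4h replicate 3, under 2-fold. The share called was 1.91%, beside 0.867% of all probe sets, and the median of the 157 was -0.05. Kif21b was the one relative called at both times. These genes were listed with earlier results of the data known, so the shares are a description.

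Markers that define neurons were low, apart from Nova2. Of 19 measured (of 21 listed) 0 were called in either VPA contrast by limma. Of all probe sets 1.00% were called higher and 1.14% lower after 64 h, and 0.867% and 0.555% after 4 h. A count of 0 among 19 genes thus says little. At an unadjusted p under 0.05 1 was higher and 3 lower after 64 h, and 0 higher and 1 lower after 4 h. The mean of the 19 lay between 5.37 and 5.44 on the VPA64h arrays and between 5.41 and 5.44 on the Ctrl64h arrays. Differences of the 19 after 64 h of VPA ran from -0.43 to 0.27. Without the fold limit 0 were then higher and 2 lower, beside 12.8% and 11.2% of all probe sets. Rbfox3 (NeuN) differed by 0.03, Elavl4 (HuD) by 0.05, and Th, the enzyme of catecholamine synthesis, by -0.07 after 64 h of VPA. Nova2 was the 1 marker above the median on every array, with a difference of 0.08.

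Schwann and glial markers had array means between 5.53 and 5.65 in VPA64h and between 5.47 and 5.62 in Ctrl64h, with 0 of 10 above the median on every array. Egr2, which is also an immediate early gene, was the 1 called, higher by 1.15 (adjusted p = 0.000727), and by 0.96 without VPA64h replicate 3. The mean of the 13 stellate cell markers was lower with VPA after 64 h, 9.61 to 9.77 against 10.03 to 10.19. The 2 called were Col3a1, lower by 2.06, and Acta2, lower by 1.17, both genes that rise in HSC activation. Single markers differed by -2.06 to 0.71. Without the fold limit 7 were lower and 2 higher, beside 11.2% and 12.8% of all probe sets. Sinusoidal endothelial markers lay at 6.06 to 6.08 in VPA64h against 6.30 to 6.62 in Ctrl64h, and Kupffer cell markers at 5.93 to 6.32 against 6.18 to 6.56. Of 12 endothelial markers 1 was called lower and 0 higher, beside 1.14% and 1.00% of all probe sets. Of 11 Kupffer cell markers 0 were called, which says little at those shares. Without the fold limit 5 of the 12 and 3 of the 11 were lower and 0 higher, beside 11.2% and 12.8% of all probe sets. The part of these shifts in the differences of the 9 genes was not tested.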

How the data were processed

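RNA of 14 HSC cultures was measured on 1-colour Affymetrix mouse whole-transcript gene arrays. The authors deposited 1 table of log2 values made by RMA (background correction, quantile normalisation, summarisation of probes), which the submitters' notes attribute to Affymetrix Expression Console and the paper's methods to GeneSpring GX. The values were used as they are. Of 35557 probe sets 21789 had 1 gene symbol in the platform annotation, 1621 several and 12147 none. For a gene with several rows (Stmn3 among the members) the row of highest mean was used. The number of arrays limits the precision.

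Samples were grouped by title. The 23410 probe sets with a symbol were tested with limma 3.58.1 in R 4.3.3, 1 fit of 5 groups and 5 contrasts with 9 residual and 6.52 prior degrees of freedom, two-sided, with Benjamini-Hochberg adjustment, which was tested on simulated data with 200 changed probe sets. Every member was named. Values on all arrays were given for Rest, Uchl1, Aplp1, Ptprn, members 4-fold apart after 64 h of VPA, members called after 4 h of VPA, and members called in control culture without overlap. Those of Syt11, Map1b, Cacng7 and Syn1 were added after the values were seen, as were the relatives and markers named that were not called. Of the other lists up to 4 called genes each were named. The members and lists were chosen with earlier results of these data known.

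Replicate numbers in the titles stand for HSC isolations in the study's legends. Deviations of same-numbered arrays from their group means correlated at 0.158 to 0.171 for VPA64h and Ctrl64h and at 0.139 to 0.279 for VPA4h and Ctrl4h. The numbers were thus taken to pair VPA with control arrays of the same time. Between control times these correlations were -0.139 to 0.11. The main fit used group means only, so the printed SE and adjusted p values do not use this pairing, while the replicate block named below does. The alternatives were 23 in number, among them trend and robust eBayes, all probe sets, dim probe sets left out, the replicate block, housekeeping centring, no fold limit and each array left out. Promoter windows are those of RefSeq (GRCm38.p6), and 31 of the 45 members had one.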

Additional observations from a re-analysis of the deposited data

How the results depend on the processing

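The count of 9 members higher after 64 h of VPA held in every alternative except the one without a fold limit, where it was 12, and the same 9 genes were called in each. Of 93 single differences checked 52 stayed past their limit in every alternative that could be applied to them, and 0 reversed. Without the fold limit the counts became 2 members lower after 64 h of VPA and 7 higher after 4 h, 3 higher from 4 h to 16 h, 3 higher and 12 lower from 16 h to 64 h, and 4 higher and 13 lower from 4 h to 64 h. For the other neuronal and secretory genes they became 23 higher and 9 lower after 64 h of VPA, and 18 higher and 5 lower after 4 h. With the replicate block 0 members were higher from 16 h to 64 h, where Cpe was lost (0.93), and no other count of members moved. Cpe was also lost when replicate 1 of Ctrl16h or replicate 3 of Ctrl64h was left out, with counts of 0 to 1 over the arrays left out. Centring on housekeeping genes left 0 members higher from 4 h to 64 h (Cpe, 0.92). Nefm, lower by 0.35 after 64 h of VPA without a fold limit, passed the adjusted p no longer in 12 alternatives, and Stmn2 in 4. The 2 or 3 arrays of a group limit the precision, and the table holds no detection calls.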

Other observations

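Other genes of the same families were called in control culture, and those named here were chosen after their values were seen. Of the 157 genes of the 4 other lists 10 rose (6.37%) and 1 fell from 4 h to 64 h, beside 6.68% and 3.71% of all probe sets. Without the fold limit 26 were higher (16.6%) and 63 lower (40.1%), beside 25.0% and 31.6%, with a median of -0.19 against -0.09 over all probe sets. Dpysl2, which acts in axon growth, rose by 1.98 (SE 0.11, adjusted p = 4.38e-10). Stmn1, the stathmin of dividing cells, rose by 1.74 (SE 0.10, adjusted p = 1.02e-09) and Nucb2, the precursor of nesfatin, by 1.74 (SE 0.10, adjusted p = 1.08e-09). The opioid precursor Penk fell by 1.84 (SE 0.22, adjusted p = 2.88e-06). The member stathmins Stmn2, Stmn3 and Stmn4 were not called over the same time. Dclk1 rose by 1.00 (adjusted p = 1.1e-05), but by less than 2-fold without Ctrl4h replicate 2 or 3 (0.94 each), without Ctrl64h replicate 1 (0.93) or centred on housekeeping genes (0.73).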
